A study of Mus musculus with 6 samples.

Results

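The genes described here are 10 transcription factor genes that direct the choice and maturation of photoreceptors: *Otx2*, *Crx*, *Neurod1*, *Mef2d* and *Rorb*, which act in precursors or in both photoreceptor types, *Nrl*, *Nr2e3* and *Esrrb*, which act in rods, and *Thrb* and *Rxrg*, which act in cones. They were taken by name from a table of 11339 genes, and 10 of 10 were listed. RNA was sequenced from 3 *Mll1KO* samples, with floxed MLL1 alleles (fl/fl) and the Chx10-Cre transgene, and from 3 wild type (WT) samples. All were retinas of strain C57Bl6/J at P14, with 2 retinas pooled in each sample and replicates lettered a, b and c. Chx10-Cre drives recombination in retinal progenitor cells. Libraries carrying Cre without floxed alleles were not analysed here, so that Cre and the loss of *Mll1* cannot be told apart. The paper's legends name the WT libraries by strain and not as *CreNeg* littermates. The floxed alleles themselves and any difference in breeding thus cannot be told apart from that loss either.

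OTX2 starts the photoreceptor program in newly born precursors and activates *Crx*, whose homeodomain protein then drives many genes of mature rods and cones. NRL directs precursors to the rod fate and activates *Nr2e3*, and NR2E3 represses cone genes and acts with CRX and NRL on rod genes. The thyroid hormone receptor THRB and its partner RXRG control the pattern of cone opsins.

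The deposited values are RPKM, reads per kilobase of gene, scaled to the total reads of the library. Library totals recovered from them were 23836033, 19777205 and 19323512 reads for WT a, b and c, and 23348923, 19855963 and 17961097 reads for *Mll1KO* a, b and c. Genotypes were compared with limma on log2(RPKM + 1), a scale that understates the change of weakly expressed genes. A gene was called at an adjusted p under 0.05, with Benjamini-Hochberg adjustment over all 11339 genes. Errors are the SD of 3 libraries, or the standard error (SE) of the fitted log2 fold change.

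*Kmt2a*, the gene that was targeted and is also called *Mll1*, had an RPKM of 36.1, 36.9 and 34.6 in WT a, b and c and of 22.9, 20.4 and 22.3 in *Mll1KO* a, b and c. All 3 *Mll1KO* libraries lay below all 3 WT libraries, at a log2 fold change of -0.69 ± 0.05 (SE, with a limma adjusted p = 2.77e-05). RPKM covers the whole gene, while Cre removes only the floxed part of it. This value thus does not measure how far the floxed part was lost, which the authors assayed by qRT-PCR with primers inside it.

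Of the 10 genes, 6 were called, against 23.3% of all genes. *Otx2*, *Nr2e3*, *Rorb* and *Neurod1* were lower in *Mll1KO*, 4 genes where 14.5% of all genes were called lower. *Esrrb* and *Nrl* were higher, 2 genes where 8.81% of all genes were called higher. When libraries were scaled to rod genes neither of them was called, and *Nrl* changed sign, to -0.09 (limma adjusted p = 0.155). *Crx*, *Mef2d*, *Thrb* and *Rxrg* were not called, although all 4 were called lower with scaling to rod or to pan-photoreceptor genes, as were 86.1% and 69.9% of all genes. An unadjusted p under 0.05 was found for 8 of the 10, against 36.9% of all genes. In 7 of the 10 genes the groups did not overlap, against 41.1% of all genes. The 10 genes were not matched to all genes by level. Their mean WT RPKM lay at percentiles 89.1 (*Rorb*) to 99.8 (*Nrl*) of all genes, except for *Thrb* (68.5) and *Rxrg* (15.9). Nor is a high share called particular to them: it was 60% here, 83.3% of the rod phototransduction list and 72.7% of the cone list. Over all 11 lists described below it ran from 0 to 85.7%. The median log2 fold change was -0.14 over the 10 genes and -0.03 over all genes. In bulk retina, fewer cells of a type and less RNA per cell cannot be told apart.

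**Figure D1:**
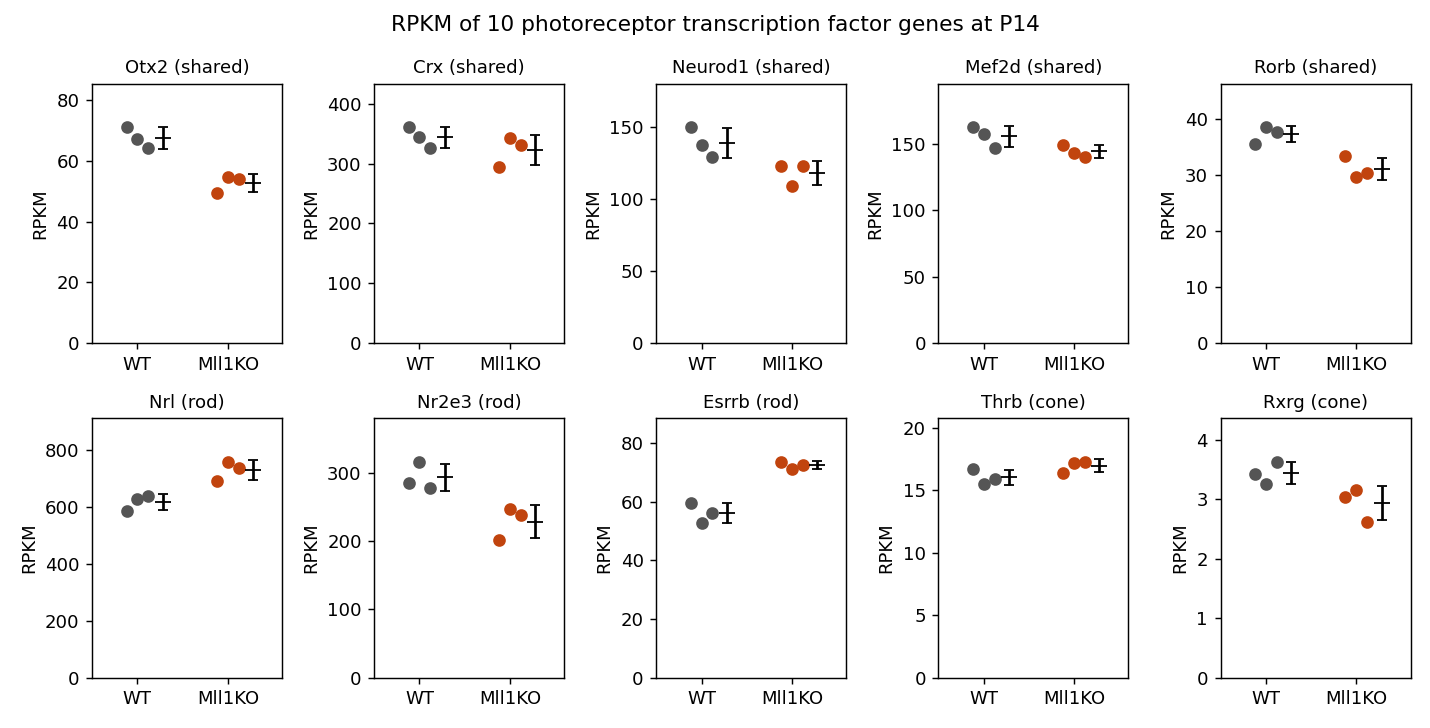
RPKM of the 10 genes in each library at P14 (points; grey WT, orange *Mll1KO*, replicates a, b and c from left to right), with the mean and SD of 3 libraries beside them and each axis starting at 0. The groups are apart for *Otx2*, *Neurod1*, *Rorb*, *Nrl*, *Nr2e3*, *Esrrb* and *Rxrg*, and overlap for *Crx*, *Mef2d* and *Thrb*.

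Among the genes shared by both photoreceptor types, *Otx2* fell most, although without *Mll1KO* a both *Otx2* and *Rorb* were at -0.31. *Otx2* (ENSMUSG00000021848; GRCm38 chromosome 14 from 48657677 to 48673819, minus strand) had an RPKM of 71.2, 67.3 and 64.2 in WT a, b and c, and of 49.5, 54.8 and 53.9 in *Mll1KO* a, b and c. Every *Mll1KO* library was below every WT library, and the lowest value was that of *Mll1KO* a. WT libraries averaged 67.5 ± 3.53 RPKM (SD, n = 3) and *Mll1KO* libraries 52.7 ± 2.84 (SD, n = 3), or 78.0% of WT. Its log2 fold change was -0.35 ± 0.05 (SE, with a limma adjusted p = 0.00136), from at least 3286 reads per library. It was -0.67 and -0.56 with scaling to rod or to pan-photoreceptor genes, where the median of all genes was -0.32 and -0.21.

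*Otx2* is also transcribed in the retinal pigment epithelium and in bipolar cells, and markers of both differed between libraries. Of 12 pigment epithelium markers, 6 were in the table (*Tyrp1*, *Dct*, *Pmel*, *Mitf*, *Ttr* and *Rgr*), while *Rpe65*, *Best1*, *Tyr*, *Mlana*, *Lrat* and *Slc6a20a* were not listed. Their summed RPKM was 220.1, 115.9 and 329.9 in WT a, b and c, and 104.1, 224.2 and 108.9 in *Mll1KO* a, b and c, with *Ttr* the most abundant. The sum was thus high in WT a, WT c and *Mll1KO* b, and the groups overlapped. None of the 6 was called by limma or limma-voom, 1 had an unadjusted p under 0.05, and none was at 0. Leaving out a library changed this, to 3 called lower without WT b and 2 without *Mll1KO* b, and scaling to rod or pan-photoreceptor genes gave 3 and 2. With the mean log2 level of these 6 markers as a term of the fit, an alternative chosen after seeing the data, *Otx2* was at -0.34 (limma adjusted p = 0.0042; over all settings 5.57e-06 to 0.00716).

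The 12 bipolar markers, all in the table, summed to 541.5, 532.6 and 526.1 RPKM in WT a, b and c and to 455.1, 453.9 and 464.3 in *Mll1KO* a, b and c. All *Mll1KO* sums were below all WT sums. Of the 12, 6 were called lower and 1 higher, none was at 0, and the called genes kept their direction under each scaling. With scaling to rod genes 11 were called lower and 0 higher, and with scaling to pan-photoreceptor genes 11 lower and 1 higher. The call of *Grm6* (-0.26, limma adjusted p = 0.0284), whose groups overlapped, was lost with TMM (0.0502), RLE (0.0525) and upper-quartile factors (0.0537). It was also lost without WT a, WT b, *Mll1KO* b or *Mll1KO* c (adjusted p = 0.0823 to 0.102). The share of bipolar RNA in the level of *Otx2* was not tested.

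*Otx2os1*, a long noncoding gene on the strand opposite *Otx2*, shares 154 exon bases with it, 3.65% of the *Otx2* exons. Its RPKM was 12.7, 11.7 and 12.3 in WT a, b and c, and 7.61, 7.09 and 7.19 in *Mll1KO* a, b and c. The groups were far apart, at a log2 fold change of -0.67 ± 0.05 (SE, with a limma adjusted p = 3.66e-05), from 154 to 360 reads per library. Since the sources used here do not say that strand was used in counting, reads from the shared bases cannot be told apart. *Gm49154*, on the same strand as *Otx2* and not listed, shares 168 exon bases with it, 3.98% of the *Otx2* exons. Both overlaps are those of GENCODE vM21, whose exons can differ from the ones the authors used in counting.

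*Crx* (ENSMUSG00000041578; chromosome 7 from 15865947 to 15879968, minus strand), the homeobox gene downstream of OTX2, had an RPKM of 361.4, 344.9 and 326.1 in WT a, b and c, and of 294.3, 343.3 and 330.4 in *Mll1KO* a, b and c. The groups overlapped, since *Mll1KO* b and c lay within the WT range and only *Mll1KO* a was below it. The log2 fold change was -0.09 with a 95% confidence interval from -0.24 to 0.05 (limma adjusted p = 0.321). Without 1 library it lay between -0.14 (without *Mll1KO* b) and -0.03 (without *Mll1KO* a), and was not called. With scaling to rod or to pan-photoreceptor genes *Crx* was called lower, at -0.42 and -0.30. Each library had 18755 to 27224 reads of *Crx*.

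*Neurod1* (ENSMUSG00000034701; chromosome 2 from 79452521 to 79456751, minus strand), a basic helix-loop-helix factor needed for photoreceptor survival, had an RPKM of 150.2, 137.8 and 129.1 in WT a, b and c, and of 123.1, 108.8 and 122.8 in *Mll1KO* a, b and c. The groups did not overlap, although WT c and *Mll1KO* a lay close together. *Neurod1* was at 85.0% of WT, with a log2 fold change of -0.23 ± 0.07 (SE, with a limma adjusted p = 0.0297). The call was lost with TMM factors, at -0.20 (limma adjusted p = 0.0621). It was also lost without WT a (adjusted p = 0.0858), without WT b (0.0739), without *Mll1KO* b (0.0948) and without *Mll1KO* c (0.0513). With scaling to rod or to pan-photoreceptor genes *Neurod1* was at -0.56 and -0.44. Over all settings its adjusted p lay between 3.85e-05 and 0.0948. Of its exon bases, 7.37% are shared with *Cerkl* on the same strand. *Cerkl* was at 9.61, 10.2 and 9.20 RPKM in WT a, b and c and at 5.77, 6.58 and 6.67 in *Mll1KO* a, b and c, a log2 fold change of -0.54 (limma adjusted p = 0.000373).

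*Rorb* (ENSMUSG00000036192; chromosome 19 from 18930605 to 19111196, minus strand), a nuclear receptor upstream of *Nrl*, had an RPKM of 35.6, 38.6 and 37.7 in WT a, b and c, and of 33.4, 29.7 and 30.3 in *Mll1KO* a, b and c. Every *Mll1KO* library was below every WT library, WT a and *Mll1KO* a being the nearest. The mean was 83.4% of WT, with a log2 fold change of -0.26 ± 0.05 (SE, with a limma adjusted p = 0.00712). Scaling to rod or to pan-photoreceptor genes gave -0.57 and -0.46. *Rorb* is also transcribed in amacrine and horizontal cells. Of 12 amacrine markers, all in the table, 3 were called higher and 7 lower, and none was at 0. With scaling to rod genes *Gad1* and *Slc6a9*, called higher with library totals, were at -0.02 and -0.08 and not called (limma adjusted p = 0.741 and 0.109). The number called higher was 5 with TMM, RLE or upper-quartile factors and without *Mll1KO* b, and 0 with scaling to rod or to pan-photoreceptor genes. The amacrine sum was 563.1, 563.5 and 580.0 RPKM in WT a, b and c and 502.1, 481.5 and 499.4 in *Mll1KO* a, b and c, with *Calb2* the most abundant. Without *Calb2* the other 11 markers summed to 321, 304 and 317 RPKM in WT a, b and c and to 303, 305 and 335 in *Mll1KO* a, b and c. The groups then overlapped, so that the lower amacrine sum rests on *Calb2*. *Tfap2a*, which defines amacrine cells, was lower (-0.33, limma, adjusted p = 0.0024).

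Of 6 horizontal cell markers, 5 were in the table (*Lhx1* was not listed), 4 were called lower and none was at 0. They summed to 55.52, 56.76 and 52.80 RPKM in WT a, b and c and to 38.82, 39.90 and 41.45 in *Mll1KO* a, b and c, with *Prox1* the most abundant. *Onecut1* was lower (-0.64, limma, adjusted p = 0.000386). The horizontal sum was lower in every *Mll1KO* library, and the part of amacrine and horizontal cells in the level of *Rorb* was not tested.

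*Mef2d* (ENSMUSG00000001419; chromosome 3 from 88142372 to 88172086, plus strand), whose MADS-box protein acts with CRX on photoreceptor enhancers, had an RPKM of 163.1, 157.5 and 147.2 in WT a, b and c, and of 149.6, 143.5 and 140.3 in *Mll1KO* a, b and c. The groups overlapped, *Mll1KO* a being above WT c. The log2 fold change was -0.11 (95% confidence interval from -0.22 to -0.00, limma adjusted p = 0.132). It was called lower, at -0.43 and -0.32, with scaling to rod or to pan-photoreceptor genes. Of its exon bases, 8.87% are shared with an antisense gene that was not listed.

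The 3 rod genes were called and moved in different directions. *Nrl* (ENSMUSG00000040632; chromosome 14 from 55518978 to 55524981, minus strand), the leucine zipper gene that sets the rod fate, had an RPKM of 586.4, 628.0 and 639.1 in WT a, b and c, and of 690.5, 759.2 and 737.4 in *Mll1KO* a, b and c. All *Mll1KO* libraries were above all WT libraries. The mean was 118% of WT, with a log2 fold change of 0.24 ± 0.06 (SE, with a limma adjusted p = 0.0158). The call was lost without *Mll1KO* b (0.21, adjusted p = 0.0606) and without *Mll1KO* c (0.23, adjusted p = 0.0639), and the adjusted p ranged from 0.00194 to 0.623 over all settings. With libraries scaled to rod phototransduction genes *Nrl* was at -0.09, and its direction thus depends on the scaling.

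*Nr2e3* (ENSMUSG00000032292; chromosome 9 from 59942771 to 59960659, minus strand), a nuclear receptor gene that is a target of NRL, had an RPKM of 285.1, 316.0 and 277.7 in WT a, b and c, and of 200.8, 246.7 and 237.2 in *Mll1KO* a, b and c. All *Mll1KO* libraries were below all WT libraries, and *Mll1KO* a was the lowest. The mean was 77.9% of WT, with a log2 fold change of -0.36 ± 0.08 (SE, with a limma adjusted p = 0.00946). Scaling to rod or to pan-photoreceptor genes gave -0.69 and -0.57. *Kmt2a* lies on the same chromosome, from 44803355 to 44881296.

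*Esrrb* (ENSMUSG00000021255; chromosome 12 from 86361117 to 86521628, plus strand), an orphan nuclear receptor gene of rods, had an RPKM of 59.5, 52.6 and 56.1 in WT a, b and c, and of 73.6, 71.0 and 72.5 in *Mll1KO* a, b and c. The groups were far apart and the *Mll1KO* libraries were close to each other. The mean was 129% of WT, with a log2 fold change of 0.36 ± 0.05 (SE, with a limma adjusted p = 0.000697). Under scaling to rod genes *Esrrb* was at 0.04 and not called (limma adjusted p = 0.389). With scaling to pan-photoreceptor genes it was at 0.16 and called higher (limma adjusted p = 0.0212).

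Neither cone gene was called by limma or limma-voom, and 1 of the 2 had an unadjusted p under 0.05, but both were called lower with libraries scaled to rod or to pan-photoreceptor genes, as were 86.1% and 69.9% of all genes. *Thrb* (ENSMUSG00000021779; chromosome 14 from 17660261 to 18038090, plus strand) had an RPKM of 16.7, 15.5 and 15.9 in WT a, b and c, and of 16.4, 17.2 and 17.3 in *Mll1KO* a, b and c. The groups overlapped, *Mll1KO* a being below WT a. The log2 fold change was 0.08 (95% confidence interval from -0.03 to 0.18, limma adjusted p = 0.257), but it was -0.23 and -0.12 with libraries scaled to rod or to pan-photoreceptor genes (adjusted p = 0.0008 and 0.0417), which is 0.09 above the median of all genes in both.

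*Rxrg* (ENSMUSG00000015843; chromosome 1 from 167598384 to 167639623, plus strand) had an RPKM of 3.43, 3.26 and 3.63 in WT a, b and c, and of 3.04, 3.16 and 2.62 in *Mll1KO* a, b and c. The *Mll1KO* libraries were all below the WT libraries, with *Mll1KO* b next to WT b. The log2 fold change was -0.17 (95% confidence interval from -0.32 to -0.03, limma adjusted p = 0.0848; -0.42 and -0.33 with scaling to rod or to pan-photoreceptor genes), from 108 to 188 reads per library, the fewest of the 10 genes.

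Levels differed widely between the 10 genes on the RPKM scale, which is per length of gene. In WT the order of mean RPKM was *Nrl* (618), *Crx* (344), *Nr2e3* (293), *Mef2d* (156), *Neurod1* (139), *Otx2* (67.5), *Esrrb* (56.0), *Rorb* (37.3), *Thrb* (16.1) and *Rxrg* (3.44). Of the neighbours in this order, *Mef2d* and *Neurod1* overlapped across WT libraries, while they did not in *Mll1KO*, and each single WT library gave the same order. In all 3 *Mll1KO* libraries *Esrrb* was above *Otx2*, where in all 3 WT libraries it was below. The other genes had the same rank in all 6 libraries. Summed RPKM of the 10 genes was 1733, 1761 and 1697 in WT a, b and c and 1634, 1777 and 1745 in *Mll1KO* a, b and c, so that the groups overlapped.

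The ratio of the RPKM of 2 genes within a library does not depend on how libraries are scaled. In bulk retina such a ratio, also one to *Crx*, can still change with the mix of cells, and this was not tested. Log2 differences of the ratios were computed after adding 1 to each RPKM, which matters for weakly expressed genes. They were computed for 10 pairs, *Nr2e3* to *Nrl* and each of the other 9 genes to *Crx*. The ratio of *Nr2e3* to *Nrl* RPKM was 0.486, 0.503 and 0.435 in WT a, b and c, and 0.291, 0.325 and 0.322 in *Mll1KO* a, b and c. All *Mll1KO* libraries had a lower ratio than all WT libraries. On the log2 scale the ratio differed by -0.60, where libraries of a group varied by 0.10 (SD). An exact permutation test, two-sided, gave p = 0.1, which 3 samples against 3 cannot go below.

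The ratio of *Otx2* to *Crx* was 0.197, 0.195 and 0.197 in WT a, b and c, and 0.168, 0.160 and 0.163 in *Mll1KO* a, b and c. WT libraries hardly varied, and all *Mll1KO* libraries were lower. The log2 difference was -0.26, where libraries of a group varied by 0.03 (SD; exact permutation test, two-sided, p = 0.1).

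Relative to *Crx*, *Nrl* was higher by 0.33, *Esrrb* by 0.46 and *Thrb* by 0.17 on the log2 scale, and *Nr2e3* was at -0.27, all 4 without overlap between groups (exact permutation test, two-sided p = 0.1 each). *Rorb*, *Neurod1*, *Mef2d* and *Rxrg* relative to *Crx* overlapped between groups, with differences of -0.16, -0.14, -0.01 and -0.08 (exact permutation test, two-sided p = 0.3, 0.4, 1 and 0.4). For *Rxrg*, the gene with the lowest RPKM, the difference depended on the amount added, at -0.13 with 0.1 and 0.00 with 5. Of the 9 ratios to *Crx*, which share their denominator, 5 had groups that did not overlap, against 21.4% for the ratios of all other genes to *Crx*.

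**Figure D2:**
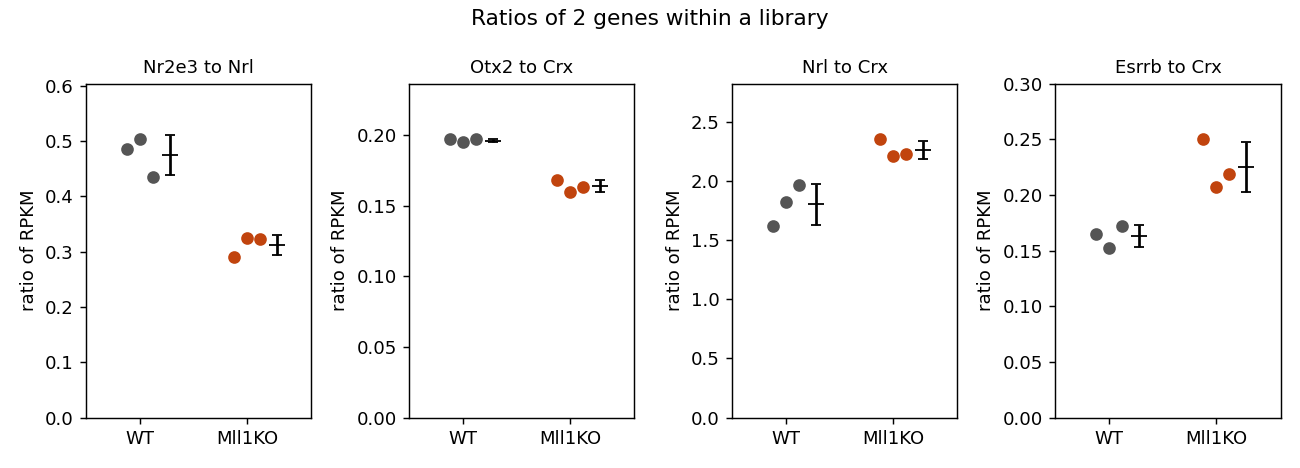
Ratio of RPKM of 2 genes within each library (points; grey WT, orange *Mll1KO*, replicates a, b and c from left to right), with the mean and SD of 3 libraries beside them and each axis starting at 0. *Nr2e3* to *Nrl* and *Otx2* to *Crx* were lower in every *Mll1KO* library, and *Nrl* to *Crx* and *Esrrb* to *Crx* were higher.

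Directions depended in part on the scaling of the libraries. With libraries brought to an equal geometric mean over 12 rod phototransduction genes, the median over all genes, -0.03 with library totals, became -0.32 on the log2 scale. *Thrb* was then at -0.23, reversed and called lower, while *Nrl*, at -0.09, was not called (limma adjusted p = 0.155). *Esrrb* was at 0.04 and no longer called (limma adjusted p = 0.389, and 8.07e-05 to 0.389 over all settings). Relative to that median, *Nrl* lay 0.23, *Esrrb* 0.36 and *Thrb* 0.09 higher, and *Nr2e3* and *Otx2* lay at -0.37 and -0.36. *Otx2*, *Nr2e3* and *Rorb* were lower and called under this scaling, under equal means over 21 pan-photoreceptor genes and with TMM, RLE and upper-quartile factors.

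**Figure D3:**
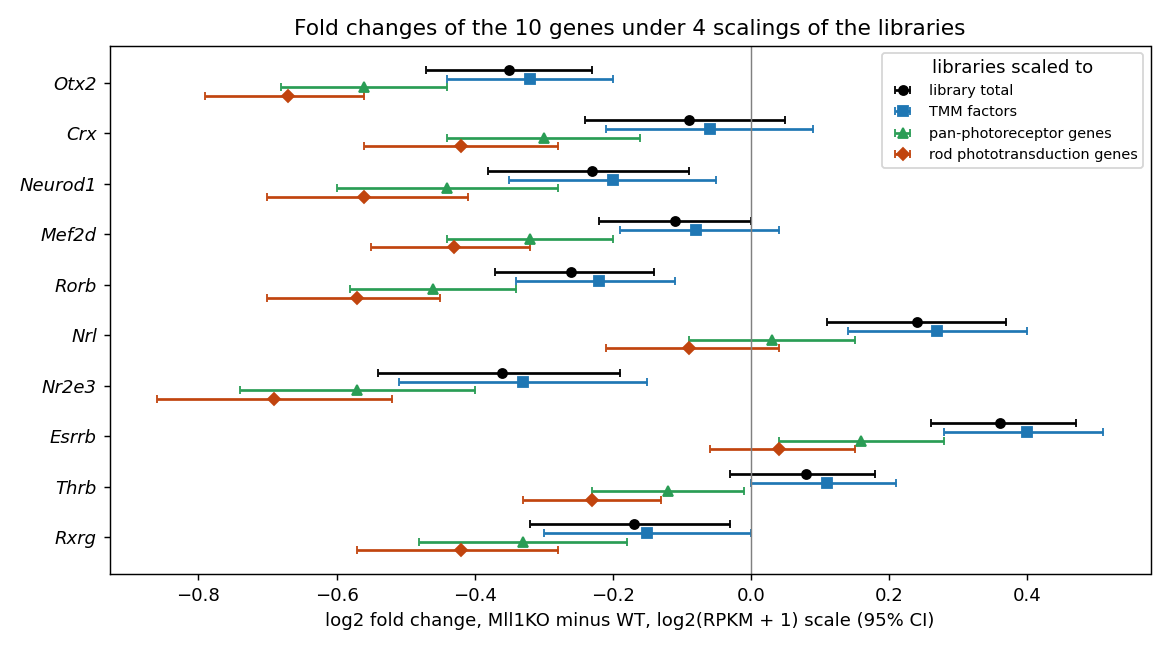
Log2 fold change of each gene (*Mll1KO* minus WT, log2(RPKM + 1) scale; points, with bars for the 95% confidence interval) with libraries scaled to their totals, by TMM factors, to pan-photoreceptor genes or to rod phototransduction genes. *Otx2*, *Nr2e3* and *Rorb* lie below 0 under all 4 scalings, while *Nrl* moves from 0.24 to -0.09 and *Thrb* from 0.08 to -0.23.

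Of 38 other regulators and partners of photoreceptor genes, 32 were in the table, 3 were called higher and 12 lower, with a median log2 fold change of -0.13, while *Nr1d1* and *Sp4*, called higher, flipped under scaling to rod or to pan-photoreceptor genes. The call of *Sp4* (0.13, adjusted p = 0.0467) was lost without any 1 of the 6 libraries (0.073 to 0.136). It was also lost with the replicate letter as a term (0.0745) and with the pigment epithelium term (0.123). Scaling to rod genes called *Sp4* lower (-0.18, limma adjusted p = 0.00275), and scaling to pan-photoreceptor genes left it at -0.07 and not called (adjusted p = 0.143). *Pou2f1*, *Ikzf1*, *Olig2*, *Sox11* and *Foxn4* were among those not listed. *Prdm1*, which encodes a repressor of bipolar genes in photoreceptor precursors, had an RPKM of 8.10, 9.17 and 7.91 in WT a, b and c and of 4.68, 4.27 and 4.87 in *Mll1KO* a, b and c. The groups were far apart (log2 fold change -0.74 ± 0.07, SE, with a limma adjusted p = 8.74e-05). *Lhx4*, a LIM homeobox gene of cones and cone bipolar cells, was at 5.95, 6.60 and 6.11 RPKM in WT a, b and c and at 3.29, 3.37 and 3.73 in *Mll1KO* a, b and c. It also showed no overlap (log2 fold change -0.69 ± 0.06, SE, with a limma adjusted p = 7.35e-05).

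*Mef2c*, a relative of *Mef2d*, went the other way, from 2.90, 2.64 and 3.18 RPKM in WT a, b and c to 8.82, 9.53 and 9.13 in *Mll1KO* a, b and c. Its mean was 315% of WT, the highest fold change of the 32 genes (1.38 ± 0.06, SE, with a limma adjusted p = 2.48e-06). *Mef2a* was not called (log2 fold change -0.11, limma adjusted p = 0.181), but was lower and called with scaling to rod or pan-photoreceptor genes (-0.43 and -0.31).

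Of the genes for polycomb partners in rods, *Samd7* was lower (-0.52, limma adjusted p = 0.00141) and *Samd11* was not called (-0.16, adjusted p = 0.094), though it was by limma-voom (-0.16, adjusted p = 0.048), without *Mll1KO* b (-0.22, adjusted p = 0.0366) and with scaling to rod or pan-photoreceptor genes (-0.49 and -0.37). *Pias3*, which modifies NR2E3, was lower (-0.34, limma adjusted p = 0.00056), as were *Tbx2*, a gene of ultraviolet cones in fish (-0.44, adjusted p = 0.000685), and *Nr2f1*, a regulator of cone opsin pattern (-0.37, adjusted p = 0.00163). *Casz1* was lower by less (-0.17, limma adjusted p = 0.0234), and was not called with TMM (0.0634), RLE (0.0716) or upper-quartile factors (0.0612). The call of *Casz1* was also lost without WT a (adjusted p = 0.0656), WT b (0.0878) or *Mll1KO* c (0.0954), and over all settings the adjusted p lay between 1.53e-05 and 0.0954. *Nr1d1*, a nuclear receptor that binds with NR2E3, was higher (0.17, limma adjusted p = 0.0166), and its call was lost without WT b (0.14, adjusted p = 0.0741). With scaling to rod genes *Nr1d1* was called lower (-0.15, limma adjusted p = 0.0056). With scaling to pan-photoreceptor genes it was at -0.04 and not called. *Rax* and *Rora* were not called (0.12 and 0.07, limma adjusted p = 0.227 and 0.244), but scaling to rod genes reversed both and called them lower (-0.19 and -0.24, adjusted p = 0.0179 and 0.000578). *Rora* was also called lower with scaling to pan-photoreceptor genes (-0.13, adjusted p = 0.0177).

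*Thra*, the other thyroid hormone receptor gene and like *Rxra* and *Rxrb* related to the cone receptors, was lower (-0.18 ± 0.04, SE, with a limma adjusted p = 0.011), while those were not called (0.01 and -0.02, limma adjusted p = 0.91 and 0.821). Under scaling to rod genes both were called lower (-0.30 and -0.33), as they were under scaling to pan-photoreceptor genes (-0.19 and -0.22).

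Genes of mature photoreceptors, among them targets of these factors, were described by list. Of 12 rod phototransduction genes, 10 were called higher and none lower, with a median log2 fold change of 0.31, while scaling to these same genes gave 2 higher and 3 lower and a median of -0.01, which follows from how that scaling is built. *Gnat1* and *Pde6a* were higher (0.39 and 0.48, limma adjusted p = 0.0112 and 0.000101), and *Pde6b* was not called (0.10, adjusted p = 0.112). Leaving out WT b, *Gnat1* was not called (0.35, adjusted p = 0.0512), nor was it with scaling to rod or pan-photoreceptor genes (0.06 and 0.18). *Pde6b* was called higher with upper-quartile factors (0.14, adjusted p = 0.0456) and lower with scaling to rod genes (-0.22, adjusted p = 0.000855).

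Of 11 cone genes, 7 were called higher and 1 lower, with a median of 0.27, while scaling to rod genes gave 3 higher and 4 lower and a median of -0.01. *Opn1mw*, the medium-wavelength opsin gene, had an RPKM of 92.0, 84.0 and 94.6 in WT a, b and c, and of 129.1, 134.4 and 135.4 in *Mll1KO* a, b and c. *Opn1sw*, the short-wavelength opsin gene, had an RPKM of 86.3, 95.7 and 101.2 in WT a, b and c, and of 64.1, 70.8 and 72.3 in *Mll1KO* a, b and c. The opsin genes thus moved in opposite directions without overlap (0.56 and -0.44, limma adjusted p = 8.29e-05 and 0.00121). *Arr3* and *Gnat2* were higher (0.66 and 0.31, limma, adjusted p = 0.000358 and 0.00222), and *Gnat2* was at -0.01 and 0.11, not called, under scaling to rod or pan-photoreceptor genes.

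Of 22 pan-photoreceptor structural genes, 21 were in the table (*Cabp4* was not listed), and 10 were called higher and none lower, with a median of 0.17, while scaling to rod genes gave 1 higher and 12 lower and a median of -0.16. *Rbp3* and *Prph2* were higher (0.39 and 0.29, limma adjusted p = 0.000846 and 0.0041; *Prph2* at -0.04 under scaling to rod genes), and *Rcvrn*, the most abundant of the list, and *Aipl1* were not called (0.08 and 0.19, adjusted p = 0.366 and 0.0617). *Aipl1* was called higher by limma-voom (0.19, adjusted p = 0.0236), with TMM, RLE or upper-quartile factors (0.22 each, adjusted p = 0.0301, 0.0272 and 0.0333) and without WT c (0.23, adjusted p = 0.0414). Under scaling to rod genes *Rcvrn* was called lower (-0.25, adjusted p = 0.00149) and *Rbp3* was not called (0.07, adjusted p = 0.239). Scaling to pan-photoreceptor genes left *Prph2* at 0.08 and not called (adjusted p = 0.189).

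Other cells of the retina were followed by 3 further lists. Of 8 ganglion cell markers, 7 were in the table (*Pou4f3* was not listed) and 6 were called lower. Their sum was 459.2, 419.4 and 444.5 RPKM in WT a, b and c and 358.6, 320.8 and 293.3 in *Mll1KO* a, b and c, led by *Sncg*, and the 6 kept their direction under each scaling. The call of *Thy1* (-0.27, limma adjusted p = 0.0318) was lost with TMM (0.0575), RLE (0.0619) and upper-quartile factors (0.0568). It was also lost with the pigment epithelium term (0.0553) and without WT a, WT c, *Mll1KO* b or *Mll1KO* c (adjusted p = 0.0619 to 0.116). *Pou4f1* was at 52.6% of WT (-0.83, limma, adjusted p = 0.000243). Of 8 Muller glia markers, 5 were called higher and none lower, against 1 higher and 3 lower with scaling to rod genes. *Rlbp1* was not called (0.09, adjusted p = 0.188), but was lower with that scaling (-0.23, adjusted p = 0.00161). The 8 markers summed to 1202, 1192 and 1318 RPKM in WT a, b and c and to 1565, 1625 and 1598 in *Mll1KO* a, b and c, led by *Glul*. Of 8 markers of dividing progenitors, 3 were in the table (*Ccna2*, *Pcna* and *Mcm2*; *Mki67*, *Top2a*, *Ccnb1*, *Cdk1* and *Birc5* were not listed), and 0 were called by limma or limma-voom or had an unadjusted p under 0.05, while 2 were called lower with scaling to rod genes and 1 with scaling to pan-photoreceptor genes. Their sum was 19.1, 19.3 and 18.5 RPKM in WT a, b and c and 20.5, 18.2 and 18.3 in *Mll1KO* a, b and c. RPKM is a share of the whole library, and the part of these cells in the results for the 10 genes was not tested.

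Promoter windows of 300 bases, 250 before to 50 after the start, were taken from RefSeq (GRCm38.p6) for 10 of the 10 genes, 17 windows in all. The letters TAATCC, a core bound by CRX and OTX2, were searched on both strands, and 7.06% of 32851 windows of all genes hold them. They were found in 3 of the 17 windows, of *Crx*, *Otx2* and *Thrb*. The window of *Crx* holds them 94 and 21 bases before the start, both on the complementary strand, so that the strand of the gene reads GGATTA there. The windows of *Nrl* and *Nr2e3*, the rod genes whose ratio fell, do not hold these letters. A match is a description of the sequence and says nothing about binding.

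The stretches below lie before the RefSeq start in *Crx* (chr7:15879969-15880205, minus strand) and *Nr2e3* (chr9:59950118-59950329, minus strand), without bases of annotated exons. The stretch of *Nr2e3* lies within the gene as GENCODE bounds it, from 59942771 to 59960659, since the annotations place its start differently. They are shown because *Crx* is the reference of the ratios and its window holds the letters, in capitals, while *Nr2e3* is lower and its window lacks them. Other genes differ: *Otx2* was lower and a window of it holds the letters. *Nrl* and *Esrrb* were higher with library totals and their windows lack them.
Crx: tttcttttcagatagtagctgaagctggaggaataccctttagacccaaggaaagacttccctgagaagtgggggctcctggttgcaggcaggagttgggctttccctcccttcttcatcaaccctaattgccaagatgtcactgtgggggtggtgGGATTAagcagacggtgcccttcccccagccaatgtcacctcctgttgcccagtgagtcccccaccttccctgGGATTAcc
Nr2e3: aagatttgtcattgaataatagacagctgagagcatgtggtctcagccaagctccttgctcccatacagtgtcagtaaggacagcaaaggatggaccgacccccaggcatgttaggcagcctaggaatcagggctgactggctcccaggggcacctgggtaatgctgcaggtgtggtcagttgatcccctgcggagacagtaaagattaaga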

How the data were processed

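RNA was sequenced by the authors from 3 *Mll1KO* and 3 WT samples. The authors aligned 50-base single reads with STAR 2.0.4b, counted them with featureCounts 1.45, kept genes with CPM above 5 in at least 5 samples, compared them with edgeR, and deposited RPKM. The build is written GRCh38.76 in the methods and mm10 in the submitters' processing notes. The log2 fold change, log2 CPM, p-value and FDR columns of the deposited table hold the authors' own comparison and were not used.

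For 59 gene IDs on more than 1 line, with equal values, 1 line was used, and 18 symbols turned into dates were named from GENCODE. Whole reads were recovered from RPKM for 100% of 11339 genes within 0.01 reads. Where the annotated exon length did not give whole reads, a length was searched for that did, so the 100% is not a check. Of genes matched to the annotation, 53.4% were at the annotated length. Read counts and limma-voom rest on these lengths. Genotypes were compared with limma 3.58.1 (R 4.3.3; variance trend, pseudocount 1, no other term). Ratios used exact permutation tests (scipy 1.17.1). Overlaps and coordinates came from GENCODE vM21, which can differ from the annotation used by the authors in counting, so that bases shared there may not have been shared in the counts. Alternatives were limma-voom, TMM, RLE and upper-quartile factors, scaling to rod or pan-photoreceptor genes, pseudocounts of 0.1 and 5, a mean RPKM of at least 1, the replicate letter as a term, leaving out each library, and a term for pigment epithelium markers, which was added after seeing the data. The 10 genes and all lists were chosen with earlier results of these data known. Genes named are the 10, genes sharing exon bases with them, the targeted gene, genes picked by name from the regulator, rod, cone and pan-photoreceptor lists, and of each marker list the first-listed markers and the most abundant gene. Some genes under this rule are not reported here. *Sp4*, *Gad1* and *Slc6a9* were chosen after their values were seen, for their change of sign with the scaling. *Thy1* and *Grm6* were chosen likewise, for the loss of their calls. The promoter stretch of *Nrl* is not printed because an annotated exon covers it.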

Additional observations from a re-analysis of the deposited data

How the results depend on the processing

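Of 170 recomputed log2 fold changes of the 10 genes, 150 kept their direction and their side of the threshold. With libraries scaled to rod phototransduction genes, *Crx* (-0.42), *Mef2d* (-0.43) and *Rxrg* (-0.42) became called as lower, and *Thrb* (-0.23) reversed and was called as lower. *Nrl* (-0.09) changed sign without being called, and *Esrrb* (0.04) was no longer called. With scaling to pan-photoreceptor genes, *Crx* (-0.30), *Mef2d* (-0.32) and *Rxrg* (-0.33) became called, *Thrb* (-0.12) reversed and was called, and *Nrl* (0.03) was no longer called. These scalings move the median of all genes to -0.32 and -0.21, so that the shift follows from how they are built. They called 9977 and 8281 genes, with 1 and 1 of the regulators higher and 31 and 27 lower. *Neurod1* was not called with TMM, RLE or upper-quartile factors (-0.20 each), and the cause was not tested. TMM factors gave 51.9% higher genes among those called, against 37.8%.

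Without 1 library, *Neurod1* lay between -0.28 and -0.17 and *Nrl* between 0.20 and 0.28, with the calls lost as given for each gene. *Rxrg* then lay between -0.22 and -0.11 and was not called. The number of genes called lay between 1704 (without WT b) and 2536 (without *Mll1KO* a), and was 1757 without *Mll1KO* c. Each of these fits left out 1 library, and the cause of their differences was not tested. The number of the 10 genes called lay between 4 and 6, and 1 regulator was called higher without WT b, against at most 2 without another library. All 90 alternatives of the ratios differed from the reported values by less than the SD between libraries. *Rxrg* had the fewest reads, 108 to 188 per library.

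Replicate letters did not pair the samples: deviations from the group means correlated at -0.039, -0.190 and -0.007 for a, b and c. With the letter as a replicate block 2242 genes were called, against 2643, and no call among the 10 genes changed.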
